A study of Arabidopsis thaliana with 16 samples.

Results

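Overexpression of CONSTANS (CO) was examined in whole seedlings at dusk, by setting 2 35S:CO libraries against 2 Col-0 libraries, 4 of the 16 RNA-seq libraries of the series. The 35S:CO line carries CO under the 35S promoter of a plant virus, which is active in nearly all tissues, and Col-0 is the wild type. Both groups were 10-day-old seedlings raised on peat-based compost in long days of 16 h light and 8 h dark, at 22 °C by day and 18 °C by night, after the seeds had been kept dark at 4 °C for 4 days. All 4 samples were taken at ZT16, which is 16 h after lights on. How many independent 35S:CO lines stand behind the samples, and how many seedlings were pooled, is not given in the sources used here. The libraries were chosen by their labels and not by any measured value. Of 32833 loci, 19214 stood at 1 FPKM or more in at least 2 of the 4 seedling libraries and were tested. A locus under 1 FPKM in both libraries of 1 group entered only through the other group, and could then only stand higher there. This holds for every tested gene below whose values in both seedling libraries of 1 group are under 1 FPKM. Whole seedlings mix cell types, so fewer cells of a type and less RNA per cell cannot be told apart.

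CO is a zinc-finger transcription factor of the B-box (BBX) family whose protein is stabilised by light late in long days. It acts mostly in the phloem companion cells of leaves, where it activates FT, and the FT protein moves to the shoot apex and starts flowering. The circadian clock sets the daily rhythm of CO mRNA through GI, FKF1 and the cycling DOF factors (CDFs), and the photoreceptors and the COP1-SPA ubiquitin ligase set the level of the protein.

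Of the 19214 tested loci, 1057 were higher and 1195 lower in 35S:CO, at a Benjamini-Hochberg adjusted p under 0.05 in limma. These are 5.5% and 6.22% of all tested loci, 11.7% in all, and a gene is called higher or lower below only where it passed that test. Differences are 35S:CO minus Col-0 on the log2(FPKM + 1) scale, with their standard errors. The increases were the larger ones: 534 of the calls higher and 205 of the calls lower reached 2-fold, and 140 and 21 reached 4-fold. The median difference of all tested loci was -0.09, and 33.4% of them lay above 0, so list medians are to be read against that shift. Fewer loci were called without either 35S:CO library. In such a fit the lone library of a group is assumed to vary like the pair of the other group, and the median SD between replicates was 0.07 log2 units in 35S:CO and 0.09 in Col-0. How far this assumption lowers the counts was not tested. In the fit lacking 35S:CO replicate 1, 65 loci were called, and without 35S:CO replicate 2, 169 were, against 3089 without Col-0 replicate 1, 1881 of them lower, and 2641 without Col-0 replicate 2. With quantile normalization 1130 were higher and 869 lower. Of the calls, 51 higher and 9 lower were made whichever library was left out.

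**Figure D1:**
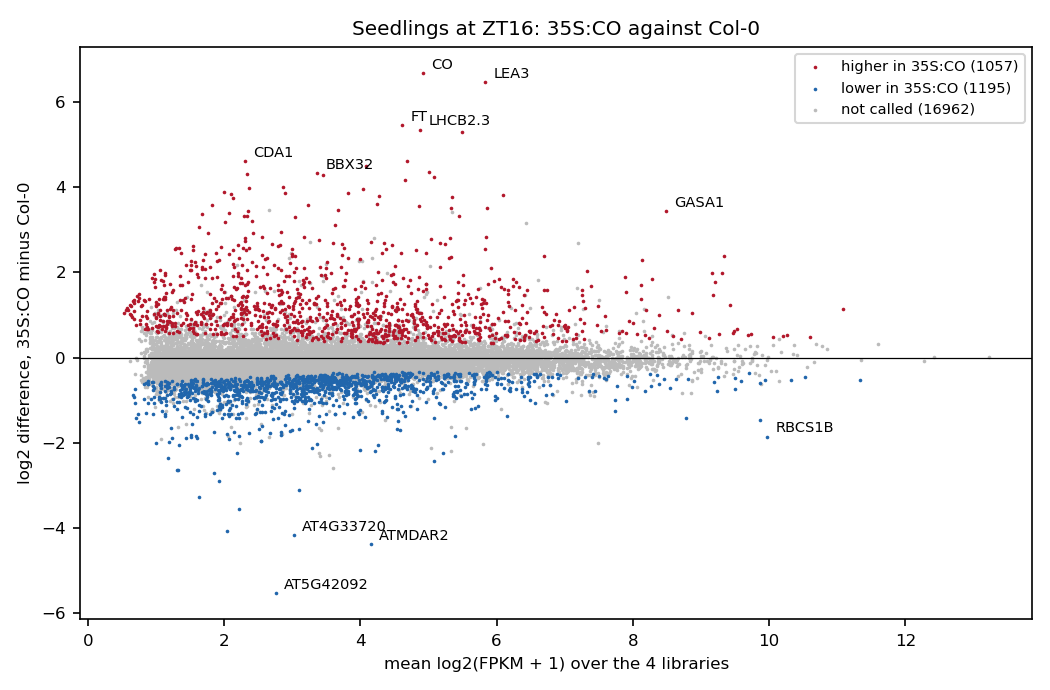
Each point is one of the 19214 tested loci, placed by its mean log2(FPKM + 1) over the 4 libraries and its log2 difference, 35S:CO minus Col-0; colours mark the 1057 called higher, the 1195 called lower and the rest. The points far above 0 outnumber those far below it, with 140 and 21 calls of 4-fold or more.

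The summed FPKM ran from 582971 to 586630 over the 4 libraries, and 7975 to 8361 loci were listed at 0. A depth of 56020000 to 63340000 reads was estimated from the step between low values, of which 45.5% to 50.1% came out within 0.02 of a whole read, so the estimate is rough. Col-0 replicate 1 stood apart in chloroplast-encoded transcripts, which made up 0.171% and 0.0766% of the summed FPKM in 35S:CO and 0.585% and 0.0741% in Col-0. Of 63 tested chloroplast-encoded loci, 0 were higher and 1 was lower.

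CO itself and its target FT were both higher. CO (AT5G15840) stood at 315 and 297 FPKM in 35S:CO and 1.91 and 2.10 FPKM in Col-0, a difference of 6.68 ± 0.08 that sums the transgene and the gene's own transcript. FT (AT1G65480) stood at 157 and 165 FPKM in 35S:CO and 2.18 and 3.28 FPKM in Col-0, a difference of 5.46 ± 0.16 (adjusted p = 0.000589). For both genes the 35S:CO libraries stood above the Col-0 libraries, as they did at 19.1% of all tested loci. Among the 5 tested members of the FT/TFL1 family and its bZIP partners, 3 were higher and 0 lower. TSF, the nearest relative of FT and also a flowering promoter, stood at 5.02 and 5.60 FPKM in 35S:CO and 0.208 and 0.680 FPKM in Col-0, and BFT, a family member that acts as a floral repressor, at 4.36 and 4.57 FPKM in 35S:CO and 1.56 and 1.38 FPKM in Col-0. They rose by 2.15 ± 0.19 and 1.15 ± 0.11. TFL1, which keeps the shoot apex from becoming a flower, was at 1.31 and 1.61 FPKM in 35S:CO against 3.37 and 2.08 FPKM in Col-0, and was not called (adjusted p = 0.13). Of these 3 calls, 1 remained without 35S:CO replicate 1 and 1 without replicate 2, FT in both cases.

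The 250 bases before the annotated start of FT are shown because this is the promoter that CO is best known to act on. They lie at chr1:24331123-24331372 on the plus strand of TAIR10.1. Capitals mark the CO-responsive element TGTGATG and its spaced form TGTGNNATG, which overlap here 81 and 83 bases before the start, and 3 copies of CCACA, a sequence bound by NF-Y complexes that hold CO, at 148, 130 and 24 bases before it, 2 of them on the minus strand.
FT: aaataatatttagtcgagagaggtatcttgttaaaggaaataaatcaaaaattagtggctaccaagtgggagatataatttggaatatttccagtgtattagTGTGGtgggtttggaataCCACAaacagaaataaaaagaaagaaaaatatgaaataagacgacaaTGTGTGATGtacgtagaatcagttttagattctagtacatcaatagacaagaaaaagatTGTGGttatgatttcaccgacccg

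MADS-box genes of flowering rose in 6 of 14 tested cases and fell in 0, with a median difference of 0.37. SOC1, which joins the photoperiod and other flowering pathways, stood at 76.0 and 68.3 FPKM in 35S:CO and 12.4 and 12.4 FPKM in Col-0, a difference of 2.45 ± 0.09 (adjusted p = 0.000712). SEP1, a partner of the floral organ identity factors, was at 9.02 and 8.45 FPKM in 35S:CO against 1.03 and 0.597 FPKM in Col-0 and rose by 2.43 ± 0.15. SEP4 rose by 1.09 ± 0.11 and FUL, a promoter of floral fate at the apex, by 1.08 ± 0.18. PI and AP3, which specify petals and stamens, rose by 0.98 ± 0.15 and 0.94 ± 0.12 but stayed low. They stood at 1.09 to 1.48 FPKM in 35S:CO against 0.104 to 0.375 FPKM in Col-0. Both passed the filter only through the 35S:CO libraries, so they could not have come out lower. The repressors of flowering SVP, FLC and MAF1 to MAF3 were not called, with SVP at 21.4 and 21.0 FPKM in 35S:CO and 22.7 and 27.5 FPKM in Col-0. In both fits that lacked a 35S:CO library, the list had 1 call, SOC1.

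In the list of SPL and AP2-like genes, which mark the passage from juvenile to adult leaves, 4 of 16 were lower and 1 was higher. All 4 that fell are AP2-like genes: SNZ at 3.85 and 3.55 FPKM in 35S:CO against 10.4 and 8.63 FPKM in Col-0, TOE3 at 1.97 and 2.06 FPKM in 35S:CO against 4.21 and 4.14 FPKM in Col-0, TOE1 at 19.2 and 19.4 FPKM in 35S:CO against 28.9 and 26.9 FPKM in Col-0 and AP2 itself at 8.71 and 8.11 FPKM in 35S:CO against 13.0 and 11.8 FPKM in Col-0. SNZ, TOE1 and TOE3 are repressors of FT. The one that rose, SPL4, a target of the FT pathway at the apex, was at 3.47 and 3.71 FPKM in 35S:CO against 2.03 and 1.75 FPKM in Col-0. The differences were -1.16 ± 0.12 for SNZ and 0.67 ± 0.11 for SPL4. With either 35S:CO library left out, no member of this list was called.

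Few markers of flowers and pollen passed the filter. Of 15 markers of the inflorescence and flower, 4 passed the filter, and SEP1, AP3 and PI of them were higher. AP3 and PI passed only through the 35S:CO libraries, so they could not have come out lower. Among those below the filter, AP1, which marks floral meristems, stood at 0.706 and 1.01 FPKM in 35S:CO and 0.0291 and 0 FPKM in Col-0, and LFY at 0.252 and 0.579 FPKM in 35S:CO and 0.0348 and 0.0434 FPKM in Col-0. STK was listed at 0 in all 4 libraries. Summed over the 15, the level was 21.9 and 21.1 FPKM in 35S:CO and 7.43 and 9.83 FPKM in Col-0. Of 10 anther and pollen markers, 1 passed the filter, LAP6, at 3.81 and 4.41 FPKM in 35S:CO and 3.88 and 3.95 FPKM in Col-0. Root markers were called in 0 of 12 cases higher and 1 lower, and of 8 leaf markers the 2 called higher were the antenna genes LHCB3 and LHCB1.3. Of the seed storage markers, CRU3 was at 7.11 and 10.5 FPKM in 35S:CO and 0.368 and 2.38 FPKM in Col-0 and was not called (adjusted p = 0.063). The 10 pollen markers summed to 4.19 and 4.62 FPKM in 35S:CO and 4.25 and 4.08 FPKM in Col-0, and the 10 seed storage markers to 28.1 and 37.5 FPKM in 35S:CO and 3.39 and 22.2 FPKM in Col-0. The part of floral tissue in the results was not tested.

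Most B-box genes, the family that CO founded, rose. Of 27 tested members, CO included, 16 were higher and 1 was lower, with a median difference of 0.65 against -0.09 for all tested loci. Among the small proteins with a single B-box, BBX32, a repressor of light responses and of flowering, stood at 47.6 and 43.2 FPKM in 35S:CO and 1.54 and 1.09 FPKM in Col-0, a difference of 4.33 ± 0.13 (adjusted p = 0.000589). BBX30 stood at 21.4 and 17.7 FPKM in 35S:CO and 0.342 and 0.245 FPKM in Col-0 and rose by 3.99 ± 0.13. BBX28, BBX31 and BBX29 rose by 3.31 ± 0.13, 3.21 ± 0.22 and 2.73 ± 0.10. Thus all 5 tested single B-box genes from BBX28 to BBX32 rose, while BBX27, at 5.93 and 4.81 FPKM in 35S:CO and 2.90 and 8.18 FPKM in Col-0, was not called. BBX30 passed the filter only through the 35S:CO libraries, so it could not have come out lower.

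Among members that carry a CCT domain as CO does, BBX16 was the strongest after CO, at 20.9 and 21.8 FPKM in 35S:CO and 0.209 and 0.0652 FPKM in Col-0, a difference of 4.30 ± 0.11. BBX16, too, passed the filter only through the 35S:CO libraries and could not have come out lower. BBX6 stood at 15.5 and 15.2 FPKM in 35S:CO and 3.59 and 4.27 FPKM in Col-0 and rose by 1.73 ± 0.11. BBX15, BBX14 and BBX5 were already at 35.6 to 123 FPKM in Col-0 and rose by 0.75 ± 0.10, 0.65 ± 0.08 and 0.43 ± 0.08. BBX8 fell, at 19.0 and 18.4 FPKM in 35S:CO and 27.3 and 26.3 FPKM in Col-0, a difference of -0.50 ± 0.08 (adjusted p = 0.0227). BBX2 and BBX3, the relatives most like CO, were not called, at 8.02 and 5.28 FPKM in 35S:CO against 6.83 and 4.27 FPKM in Col-0 for BBX2 and 4.26 and 4.23 FPKM in 35S:CO against 2.81 and 3.69 FPKM in Col-0 for BBX3.

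Of the double B-box genes, which modulate seedling responses to light, BBX25 and BBX24 rose by 2.24 ± 0.08 and 1.77 ± 0.09. BBX24, a negative regulator of light-dependent development, stood at 80.1 and 77.8 FPKM in 35S:CO and 21.1 and 24.0 FPKM in Col-0. BBX19, BBX18 and BBX22 rose by 1.29 ± 0.12, 1.28 ± 0.14 and 0.56 ± 0.09, while BBX20 and BBX21 were not called, with BBX21 at 14.1 and 13.4 FPKM in 35S:CO and 16.5 and 23.6 FPKM in Col-0. The family had 7 calls, all higher, without 35S:CO replicate 1 and 8 without replicate 2.

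Clock genes expressed from dawn to midday stood higher at dusk in 35S:CO. Of 16 tested members of this list, 14 were higher and 0 lower, with a median difference of 1.78. The paired MYB factors at the core of the morning loop were both among them. LHY stood at 11.1 and 10.1 FPKM in 35S:CO and 0.717 and 0.980 FPKM in Col-0, a difference of 2.65 ± 0.12 (adjusted p = 0.00128), and CCA1 at 5.84 and 5.54 FPKM in 35S:CO and 0.703 and 0.384 FPKM in Col-0, a difference of 2.12 ± 0.14. LHY and CCA1 passed the filter only through the 35S:CO libraries, so they could not have come out lower. Their relative RVE1, which links the clock to auxin, had the largest difference of the list, 2.83 ± 0.33, with Col-0 replicates apart at 24.6 and 21.5 FPKM in 35S:CO against 1.44 and 3.67 FPKM in Col-0. RVE8, an activator of evening genes, rose by 1.65 ± 0.12 and RVE7 by 0.80 ± 0.11.

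The pseudo-response regulators that follow through the day were higher from PRR9 to PRR5. PRR9 stood at 6.14 and 5.86 FPKM in 35S:CO and 0.264 and 0.173 FPKM in Col-0, and PRR7 at 25.6 and 27.0 FPKM in 35S:CO and 2.96 and 3.11 FPKM in Col-0. PRR9 passed the filter only through the 35S:CO libraries, so it could not have come out lower. PRR5, listed with the afternoon genes, stood at 50.8 and 50.0 FPKM in 35S:CO and 6.58 and 7.39 FPKM in Col-0. The differences were 2.52 ± 0.11, 2.76 ± 0.09 and 2.69 ± 0.09, whereas PRR3 was not called at 0.40 and neither was TOC1, the last of the series, at 38.2 and 42.4 FPKM in 35S:CO against 37.0 and 43.4 FPKM in Col-0. All 4 LNK coactivators rose, LNK1 by 2.33 ± 0.13, LNK4 by 2.18 ± 0.11, LNK3 by 1.73 ± 0.14 and LNK2 by 1.58 ± 0.15. The CDF genes, repressors of CO and FT transcription, rose too, CDF3 at 15.4 and 16.3 FPKM in 35S:CO and 4.02 and 3.50 FPKM in Col-0, CDF1 at 11.8 and 11.0 FPKM in 35S:CO against 2.92 and 3.61 FPKM in Col-0 and CDF2 at 6.37 and 5.76 FPKM in 35S:CO against 1.41 and 1.83 FPKM in Col-0. RVE2 and RVE4 were not called.

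Of 15 clock genes that peak from afternoon to night, 2 were higher and 1 was lower, with a median difference of 0.08. GI, which with FKF1 removes the CDF repressors, stood at 34.4 and 36.3 FPKM in 35S:CO and 3.45 and 2.94 FPKM in Col-0, a difference of 3.12 ± 0.10 (adjusted p = 0.000618). ELF4, a subunit of the evening complex, was the one that fell, at 19.3 and 23.1 FPKM in 35S:CO and 86.0 and 71.8 FPKM in Col-0, a difference of -1.85 ± 0.13. LUX and ELF3, the other subunits of that complex, were not called, at differences of 0.34 and -0.10. FKF1, which binds GI in blue light, was at 8.47 and 8.94 FPKM in 35S:CO against 11.8 and 11.3 FPKM in Col-0 and was not called (adjusted p = 0.056). When 35S:CO replicate 1 was dropped, the morning list had 1 call and the afternoon list 2, and without replicate 2 they had 4 and 2. Without Col-0 replicate 1 the afternoon list had 5.

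The promoters of LHY, PRR9 and PRR5 are shown as examples of the clock genes that rose. The 250 bases before each annotated start lie at chr1:37872-38121 (minus strand), chr2:19232357-19232606 (plus strand) and chr5:8358547-8358796 (minus strand) in TAIR10.1. Capitals mark the G-box CACGTG, the evening element AAAATATCT, the CCA1 binding site AAAAATCT and CCACA, on either strand. LHY and PRR9 hold the G-box, PRR9 in 2 copies, and PRR5 holds an evening element and a CCA1 binding site, both on the minus strand of the gene. Promoters of other clock genes that rose were read as well. Those of CCA1 and PRR7 hold the G-box and that of GI holds CCACA, while that of LNK1 holds no copy of any of these motifs.
LHY: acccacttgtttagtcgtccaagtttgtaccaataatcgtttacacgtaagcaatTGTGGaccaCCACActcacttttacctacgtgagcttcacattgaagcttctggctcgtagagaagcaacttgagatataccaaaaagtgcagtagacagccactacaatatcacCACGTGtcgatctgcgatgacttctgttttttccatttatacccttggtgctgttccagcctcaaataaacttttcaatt
PRR9: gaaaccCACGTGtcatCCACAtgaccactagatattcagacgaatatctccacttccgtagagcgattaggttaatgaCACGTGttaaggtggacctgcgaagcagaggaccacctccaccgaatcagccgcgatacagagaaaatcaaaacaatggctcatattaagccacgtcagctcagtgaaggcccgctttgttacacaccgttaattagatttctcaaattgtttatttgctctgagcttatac
PRR5: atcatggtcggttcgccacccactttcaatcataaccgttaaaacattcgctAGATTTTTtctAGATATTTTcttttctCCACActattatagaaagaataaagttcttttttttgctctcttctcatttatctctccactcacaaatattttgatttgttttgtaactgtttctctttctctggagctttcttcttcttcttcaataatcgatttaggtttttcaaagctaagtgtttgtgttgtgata

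**Figure D2:**
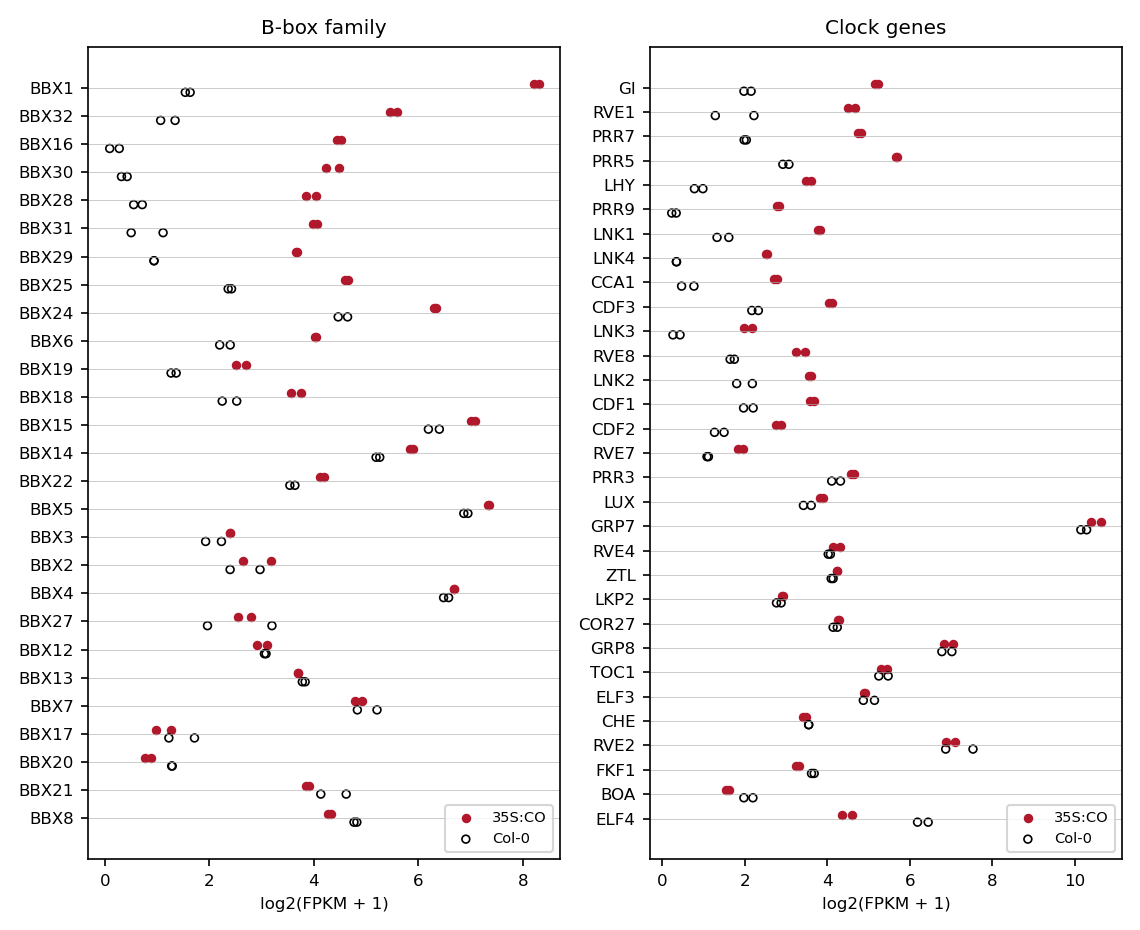
Levels of the 27 tested B-box genes (left) and 31 tested clock genes (right) in each library, as log2(FPKM + 1) on the horizontal axis; filled red points are the 2 35S:CO libraries and open points the 2 Col-0 libraries, and genes are ordered by their difference. BBX1 is CO. The groups are far apart for BBX16 and GI and overlap for genes such as BBX27 and TOC1, and BBX8 and ELF4 stand at the bottom.

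Light receptors and signalling partners were called in both directions. Of 19 tested photoreceptor and COP1-SPA genes, 3 (15.8%) were higher and 2 (10.5%) lower, with a median of -0.07. The shares of all tested loci were 5.5% and 6.22%. RUP1 and RUP2, which switch off the UVR8 receptor and are also known to restrain CO activity, stood at 6.31 and 6.37 FPKM in 35S:CO against 2.00 and 2.25 FPKM in Col-0 and at 10.2 and 9.82 FPKM in 35S:CO against 4.04 and 3.97 FPKM in Col-0. They rose by 1.23 ± 0.10 and 1.14 ± 0.09, and the phytochrome gene PHYE rose by 0.64 ± 0.07. PHYA and PHOT2 fell by 0.45 ± 0.09 and 0.43 ± 0.09. COP1 and all 4 SPA genes were not called.

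Of 14 tested light-response transcription factors, 4 were higher and 1 was lower. 3 of the risers are phytochrome-interacting bHLH factors that promote elongation: PIF7 at 24.5 and 22.1 FPKM in 35S:CO against 6.87 and 6.32 FPKM in Col-0, PIF4 at 6.95 and 7.14 FPKM in 35S:CO against 1.30 and 1.94 FPKM in Col-0 and PIF5 at 10.3 and 10.4 FPKM in 35S:CO against 3.24 and 3.74 FPKM in Col-0. Their differences were 1.68 ± 0.10, 1.63 ± 0.15 and 1.34 ± 0.10. GLK2, an activator of chloroplast genes, rose by 1.01 ± 0.08, whereas HY5, the bZIP factor that promotes development in the light, fell by 0.81 ± 0.12. With 35S:CO replicate 1 left out, both light lists had 0 calls, and without replicate 2 the 1 call was PIF7. Without Col-0 replicate 1 the transcription factor list had 8 calls, 5 higher and 3 lower.

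Genes of the light-harvesting antenna, the chlorophyll-binding proteins around the photosystems, were higher in 16 of 22 tested cases and lower in 0, with a median difference of 1.50. LHCB2.3 had the largest difference, 5.35 ± 0.10, at 193 and 181 FPKM in 35S:CO and 3.93 and 3.33 FPKM in Col-0. LHCB2.1 and LHCB2.2 stood at 244 and 268 FPKM in 35S:CO against 20.1 and 14.6 FPKM in Col-0 and at 180.5 and 209.6 FPKM in 35S:CO against 18.3 and 14.4 FPKM in Col-0. The LHCB1 and LHCB2 genes are near-identical copies, and how the authors divided shared reads is not given in the sources used here, so the split within each set is uncertain. LHCB3, a subunit of the trimeric antenna, stood at 569 and 679 FPKM in 35S:CO and 117 and 134 FPKM in Col-0 and rose by 2.30 ± 0.12 (adjusted p = 0.00185).

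The minor antenna divided. LHCB4.2 and LHCB6 rose by 2.03 ± 0.08 and 1.77 ± 0.08, and LHCB5 by 0.54 ± 0.08. LHCB4.1 was not called, at 1274 and 1355 FPKM in 35S:CO against 1032 and 912 FPKM in Col-0, and LHCB4.3 had a value of -1.66 ± 0.38 with Col-0 replicates apart (adjusted p = 0.0678). At photosystem I, LHCA4 stood at 1221 and 1288 FPKM in 35S:CO and 320.1 and 314 FPKM in Col-0, a difference of 1.98 ± 0.08. LHCA3, LHCA1 and LHCA2 rose by 1.24 ± 0.14, 0.60 ± 0.08 and 0.56 ± 0.10, and the minor members LHCA5 and LHCA6 were not called. The early light-induced proteins ELIP2 and ELIP1, which bind free pigments under high light, rose by 1.82 ± 0.15 and 1.28 ± 0.20. The list had 7 calls without 35S:CO replicate 1 and 7 without replicate 2, all higher.

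The promoter of LHCB2.3 is shown as that of the antenna gene with the largest difference. It lies at chr3:10255656-10255905 on the plus strand of TAIR10.1, with a G-box and 3 copies of CCACA, one of them on the minus strand, in capitals.
LHCB2.3: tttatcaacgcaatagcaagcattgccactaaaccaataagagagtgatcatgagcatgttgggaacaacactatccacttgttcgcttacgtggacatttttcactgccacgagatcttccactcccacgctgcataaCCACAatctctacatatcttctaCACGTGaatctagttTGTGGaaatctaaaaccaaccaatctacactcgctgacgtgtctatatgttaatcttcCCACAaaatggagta

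Chlorophyll synthesis changed at particular steps. Of 20 tested genes, 4 were higher and 1 was lower. HEMA1, which makes the first committed precursor, stood at 132 and 109 FPKM in 35S:CO and 44.2 and 39.7 FPKM in Col-0. GUN5, a subunit of the magnesium chelatase, stood at 272 and 276 FPKM in 35S:CO against 123 and 111 FPKM in Col-0 and CRD1, an enzyme of ring closure, at 939 and 976 FPKM in 35S:CO against 359 and 337 FPKM in Col-0. CAO, which turns chlorophyll a into the chlorophyll b of the antenna, rose most, by 1.82 ± 0.15. CHLG, which adds the phytol tail, fell by 0.41 ± 0.08. GUN4, the chelatase activator, stood at 65.7 and 69.4 FPKM in 35S:CO and 6.37 and 31.5 FPKM in Col-0, with the Col-0 replicates apart, and was not called (adjusted p = 0.21). In carotenoid synthesis 2 of 10 genes were higher and 0 lower: ABA1, which makes violaxanthin and thereby the precursor of abscisic acid, by 1.83 ± 0.08, and CLA1, the entry of the plastid isoprenoid pathway, by 0.72 ± 0.10. In the fit lacking 35S:CO replicate 1, these lists had 0 calls, and without replicate 2 they had 2 and 1. Without Col-0 replicate 2 the chlorophyll list had 7 calls higher and 1 lower.

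The Calvin cycle, which fixes carbon with the energy from the photosystems, held no increases. Of 18 tested genes, 0 were higher and 4 were lower, with a median of -0.04. RBCS1B, one of the Rubisco small subunit genes, fell by 1.85 ± 0.09, at 532 and 519 FPKM in 35S:CO and 1989 and 1817 FPKM in Col-0. Its near-identical neighbours RBCS2B and RBCS3B were not called, and RBCS1A, the most abundant, stood at 9382 and 9776 FPKM in 35S:CO and 9541 and 9522 FPKM in Col-0. How shared reads were divided is not given in the sources used here, so the split among RBCS1B, RBCS2B and RBCS3B is uncertain. CP12-2, a regulator of the cycle, fell by 0.74 ± 0.09, the epimerase RPE by 0.62 ± 0.09 and the dehydrogenase GAPB by 0.53 ± 0.11. With either 35S:CO library left out, the list had 1 call, RBCS1B.

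**Figure D3:**
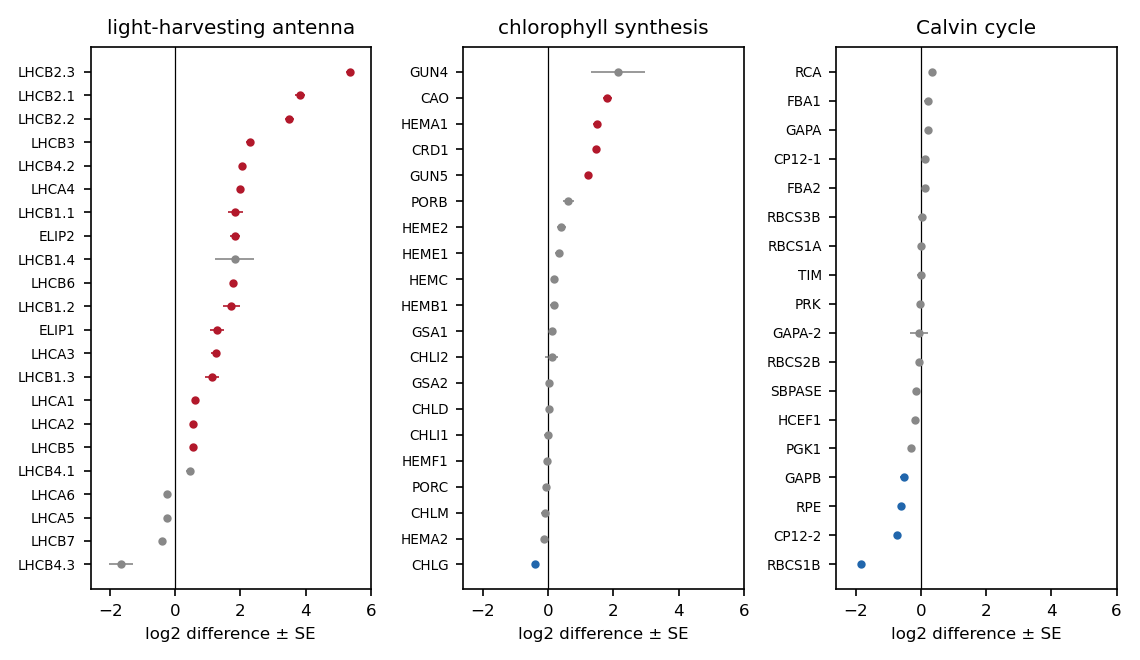
Log2 difference, 35S:CO minus Col-0, with its standard error, for each tested gene of the light-harvesting antenna (22), chlorophyll synthesis (20) and the Calvin cycle (18); red points were called higher, blue points lower and grey points not called. Antenna points reach 5.35, while those of the Calvin cycle end at 0.33.

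Starch genes changed in both directions. Of 16 starch synthesis genes, 1 (6.25%) was higher and 2 (12.5%) were lower, against 5.5% and 6.22% of all tested loci. Such counts do not set this list apart from all loci. GBSS1, which makes amylose and is a clock-regulated gene, stood at 102 and 93.8 FPKM in 35S:CO and 10.1 and 5.42 FPKM in Col-0, a difference of 3.55 ± 0.27 (adjusted p = 0.00588). ISA1 and ISA2, the debranching enzymes of amylopectin synthesis, fell by 0.72 ± 0.09 and 0.70 ± 0.09. The branching enzyme genes and the soluble starch synthases SS1 to SS4 were not called.

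Of 22 starch breakdown genes, 6 (27.3%) were higher and 5 (22.7%) lower. The risers were amylases. BAM9 stood at 94.4 and 76.4 FPKM in 35S:CO and 8.72 and 14.9 FPKM in Col-0, a difference of 2.79 ± 0.26, BAM5 at 97.0 and 56.8 FPKM in 35S:CO against 20.5 and 12.9 FPKM in Col-0 and BAM1 at 72.9 and 68.0 FPKM in 35S:CO against 30.6 and 27.1 FPKM in Col-0, all beta-amylase family members. The alpha-amylases AMY1, AMY2 and AMY3 rose by 2.58 ± 0.29, 0.82 ± 0.13 and 0.63 ± 0.08. Of those that fell, 4 belong to the nightly route through maltose: SEX1, which phosphorylates starch, at 75.8 and 91.1 FPKM in 35S:CO against 167 and 135 FPKM in Col-0, the maltose exporter MEX1 at 13.9 and 15.5 FPKM in 35S:CO against 25.2 and 23.4 FPKM in Col-0, and the glucanotransferases DPE1 and DPE2. DPE2 fell by 0.99 ± 0.11 and DPE1 by 0.46 ± 0.09, and the fifth, BAM6, by 1.03 ± 0.18. When 35S:CO replicate 1 was dropped, both starch lists had 0 calls, and without replicate 2 they had 0 and 1. Without Col-0 replicate 1 the synthesis list had 1 call higher and 4 lower.

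Sugar transporters also changed in both directions, with 6 of 20 higher and 4 lower. SAG29, also named SWEET15, stood at 131 and 121 FPKM in 35S:CO and 5.82 and 2.95 FPKM in Col-0, a difference of 4.61 ± 0.27. SWEET13 and SWEET14, sucrose exporters of the plasma membrane, stood at 23.8 and 25.9 FPKM in 35S:CO against 2.28 and 1.07 FPKM in Col-0 and at 6.48 and 6.86 FPKM in 35S:CO against 0.415 and 0.417 FPKM in Col-0. SWEET11, which loads sucrose for the phloem, rose by 1.19 ± 0.12, but its partner SWEET12 fell by 1.70 ± 0.08, at 12.3 and 12.4 FPKM in 35S:CO and 43.7 and 41.1 FPKM in Col-0. SUC2, the companion-cell importer that completes phloem loading, fell by 0.54 ± 0.09, and the vacuolar importer TMT1 by 0.42 ± 0.08. SUC1 and STP13, importers of sucrose and hexose, rose by 0.51 ± 0.11 and 0.84 ± 0.15, and SWEET4 fell by 1.29 ± 0.19. With 35S:CO replicate 1 left out, the list had 0 calls, and without replicate 2 it had 2.

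Sulfur and iron lists held mostly increases. Of 12 sulfur genes, 4 were higher and 1 was lower. APR2, the reductase that controls sulfate assimilation, stood at 468 and 440.0 FPKM in 35S:CO and 120.1 and 122 FPKM in Col-0, a difference of 1.90 ± 0.08 (adjusted p = 0.00104), and was called whichever library was left out. SDI1, a marker of sulfur deficiency, rose by 1.42 ± 0.14, BGLU28, a glucosidase thought to release sulfur from glucosinolates, by 1.13 ± 0.11, and the vacuolar sulfate exporter SULTR4;2 by 0.73 ± 0.12. LSU1, another marker of low sulfur, fell by 1.03 ± 0.12. With either 35S:CO library left out, APR2 was the 1 call.

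Of 21 iron genes, 7 were higher and 2 lower, with a median of 0.36. The risers include markers of the response to low iron. bHLH38 and bHLH39, activators of uptake, stood at 108 and 133 FPKM in 35S:CO against 29.4 and 50.5 FPKM in Col-0 and at 59.9 and 78.2 FPKM in 35S:CO against 20.4 and 33.2 FPKM in Col-0. FRO3, a ferric reductase, stood at 85.3 and 98.4 FPKM in 35S:CO and 25.8 and 33.3 FPKM in Col-0, and the regulators PYE and BTS rose by 0.77 ± 0.10 and 0.87 ± 0.15. OPT3, which moves iron in the phloem, rose by 0.75 ± 0.10. The iron stores went apart, as FER1 fell by 0.95 ± 0.08 and FER3 rose by 0.54 ± 0.11. VTL5, a vacuolar iron transporter family member, fell by 0.86 ± 0.09. With either 35S:CO library left out, 0 of the 9 calls were made.

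Among nitrate and peptide transporters, 3 of 26 were higher and 5 lower. NPF6.4 stood at 249 and 221 FPKM in 35S:CO and 54.4 and 35.8 FPKM in Col-0, a difference of 2.38 ± 0.21. NPF7.2 (NRT1.8), which takes nitrate out of the xylem, stood at 20.5 and 15.1 FPKM in 35S:CO and 3.37 and 3.35 FPKM in Col-0, and NPF7.3 (NRT1.5), which loads it, at 17.8 and 18.4 FPKM in 35S:CO and 28.0 and 32.6 FPKM in Col-0. The differences were 2.09 ± 0.16 and -0.71 ± 0.10. NPF4.3 and NPF4.4 fell by 1.02 ± 0.11 and 0.93 ± 0.13. In the wider list of nitrate, ammonium and amide metabolism 4 of 33 were higher and 5 lower. In the fit lacking 35S:CO replicate 1, the transporter list had 0 calls, and without replicate 2 it had 1.

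Calls in other metabolic lists are to be read against the 5.5% higher and 6.22% lower of all tested loci. Of 24 glucosinolate genes 1 (4.17%) was higher and 4 (16.7%) were lower, and of 15 genes of the low-sugar response 2 (13.3%) and 0. Of 17 phosphate-starvation genes 1 (5.88%) was higher and 1 (5.88%) lower, and of 28 ascorbate and antioxidant genes 2 (7.14%) and 2 (7.14%). Of 12 heat-shock genes 2 (16.7%) were higher and 0 lower, and of 14 cold-response genes 0 and 2 (14.3%). In the glucosinolate list the myrosinases TGG1 and TGG2, which cleave the stored compounds, fell by 1.47 ± 0.10 and 0.98 ± 0.16, and MYB28, the activator of the aliphatic branch, by 0.81 ± 0.09. Lacking either 35S:CO library, these lists had 0 or 1 call each. Without Col-0 replicate 2 they had more: 1 higher and 11 lower in the glucosinolate list, 7 and 1 in the low-sugar list, 8 and 1 in the phosphate list, and 0 and 7 in the cold list.

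Auxin and cytokinin lists held decreases. Of 22 Aux/IAA genes, short-lived repressors that many tissues make in response to auxin, 0 were higher and 7 were lower, with a median of -0.28. IAA27 stood at 9.19 and 9.70 FPKM in 35S:CO and 22.0 and 19.8 FPKM in Col-0, a difference of -1.06 ± 0.09 (adjusted p = 0.00552). IAA14, IAA28 and IAA11, the next by size, fell by 0.70 ± 0.10, 0.70 ± 0.09 and 0.70 ± 0.09. Among 51 SAUR genes, another family with many auxin-induced members, 8 (15.7%) were higher and 4 (7.84%) lower, against 5.5% and 6.22% of all tested loci. Lacking either 35S:CO library, the Aux/IAA list had 0 calls, and without Col-0 replicate 1 it had 1 higher and 10 lower.

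Cytokinin genes were higher in 0 of 14 cases and lower in 4. ARR7, a fast-response negative regulator, stood at 9.20 and 8.27 FPKM in 35S:CO and 16.4 and 19.7 FPKM in Col-0, and the receptor gene WOL at 6.36 and 6.98 FPKM in 35S:CO and 15.9 and 12.2 FPKM in Col-0. They fell by 0.97 ± 0.12 and 0.96 ± 0.14, CKX4, which degrades the hormone, by 0.53 ± 0.11, and ARR6 by 0.50 ± 0.09. Of 15 tested response regulators in the whole ARR family, 1 was higher and 3 were lower. The one that rose, ARR2, an activator of cytokinin targets, stood at 9.35 and 9.22 FPKM in 35S:CO and 4.38 and 4.75 FPKM in Col-0. In both fits that lacked a 35S:CO library, both lists had 0 calls, and without Col-0 replicate 1 the ARR family had 1 higher and 6 lower.

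Gibberellin genes were higher in 3 of 21 cases and lower in 4. GASA1, a small secreted peptide of the gibberellin-regulated family, stood at 1312 and 1042 FPKM in 35S:CO and 85.7 and 135 FPKM in Col-0, a difference of 3.43 ± 0.25 (adjusted p = 0.00498), while its relative GASA4 fell by 1.00 ± 0.15. The DELLA repressors GAI and RGL1 fell by 0.64 ± 0.11 and 0.64 ± 0.10. KAO2, a step in gibberellin synthesis, fell by 0.62 ± 0.11, and GA2OX6 and GA2OX1, which inactivate the hormone, rose by 0.68 ± 0.12 and 0.61 ± 0.12. Of 13 brassinosteroid genes 0 were higher and 1 was lower. CLE peptides, short-range signals of meristems and vessels, were higher in 0 of 13 cases and lower in 3 (23.1%), CLE42, CLE26 and CLE44. The share lower was 6.22% over all tested loci. All 13 tested members had differences below 0, while 33.4% of all tested loci lay above 0. In both fits that lacked a 35S:CO library, these 3 lists had 0 calls.

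Wall-loosening genes did not move as one. Of 17 alpha-expansins, which loosen walls during growth, 0 were higher and 2 (11.8%) were lower, against 5.5% and 6.22% of all tested loci. All 17 had differences below 0, while 33.4% of all tested loci lay above 0. EXP15 fell by 1.20 ± 0.20 and EXP1 by 0.57 ± 0.12. Of 27 XTH genes, which cut and join xyloglucan, 4 (14.8%) were higher and 3 (11.1%) lower. For both families the called shares were under 3 times those of all tested loci. XTH24 stood at 142 and 108 FPKM in 35S:CO and 28.2 and 28.4 FPKM in Col-0, a difference of 2.10 ± 0.14, while XTH20 had a difference of -1.10 ± 0.12. Lacking either 35S:CO library, the expansins had 0 calls and the XTH genes 1, and without Col-0 replicate 2 the expansins had 5.

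Gene families read from symbols hold only loci whose symbol or synonym in the reference fits a pattern, so members can be missing. The DOF list held 17 loci and the class III peroxidase list 14. Of 12 tested DOF factors, 5 were higher and 0 lower. CDF1, CDF2 and CDF3 are 3 of the 5, and DOF2.4 and DOF1 rose by 1.05 ± 0.11 and 0.49 ± 0.10. The listed class III peroxidases, which act in the cell wall, were higher in 4 of 12 tested cases and lower in 0. PRX52 stood at 6.97 and 4.47 FPKM in 35S:CO and 0.272 and 0.906 FPKM in Col-0, a difference of 2.09 ± 0.28, and PRX71, PRX25 and PRX34 rose by 1.14 ± 0.15, 1.07 ± 0.21 and 0.89 ± 0.11.

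Plasma membrane aquaporins were higher in 4 of 13 cases and lower in 2. PIP2;1, a water channel of wide expression, stood at 458 and 479.9 FPKM in 35S:CO and 243 and 227 FPKM in Col-0, and its neighbour in sequence PIP2;2 at 63.3 and 62.6 FPKM in 35S:CO and 106 and 106 FPKM in Col-0. They moved in opposite directions, by 0.99 ± 0.08 and -0.74 ± 0.07. PIP1;3 and PIP1;1 rose by 0.82 ± 0.09 and 0.74 ± 0.10, and PIP1;2 fell by 0.51 ± 0.08.

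Calcium-sensor kinases of the CBL and CIPK family were higher in 6 of 29 cases and lower in 0. All 6 are CIPK kinases. CIPK11 (SIP4) stood at 5.16 and 4.54 FPKM in 35S:CO and 0 and 0 FPKM in Col-0, where it was thus listed at 0. CIPK1 stood at 60.9 and 51.5 FPKM in 35S:CO and 13.4 and 19.4 FPKM in Col-0, a difference of 1.74 ± 0.19, and CIPK20 and CIPK14 rose by 1.82 ± 0.12 and 0.94 ± 0.11. When 35S:CO replicate 1 was dropped, the DOF, peroxidase, aquaporin and CIPK lists had 0 calls, and without replicate 2 they had 0, 0, 0 and 1.

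The UDP-glycosyltransferases, which attach sugars to hormones, defence compounds and xenobiotics, were higher in 7 of 51 cases and lower in 11. UGT76E12 stood at 5.15 and 4.87 FPKM in 35S:CO and 0.119 and 0.0808 FPKM in Col-0, a difference of 2.45 ± 0.11. Within the UGT73 clade the called C members rose and the called B members fell. UGT73C1, UGT73C5 and UGT73C2 rose by 1.77 ± 0.11, 1.27 ± 0.15 and 1.00 ± 0.14, and UGT73B3, UGT73B2, UGT73B4 and UGT73B1 fell by 1.34 ± 0.13, 1.28 ± 0.19, 1.12 ± 0.19 and 0.85 ± 0.16. With 35S:CO replicate 1 left out, the family had 0 calls, and without replicate 2 it had 2.

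In 5 further families the called share was under 3 times the background of 5.5% higher and 6.22% lower. Cytochromes P450 were higher in 22 of 144 cases and lower in 13, NAC factors in 7 and 3 of 53, R2R3-MYB factors in 4 and 7 of 65, WRKY factors in 4 and 3 of 47, and glutathione transferases in 3 and 5 of 44. Among the P450 genes, chosen here after their values were seen, CYP707A4 and CYP707A2, which break down abscisic acid, stood at 28.8 and 26.0 FPKM in 35S:CO against 0.803 and 1.14 FPKM in Col-0 and at 20.5 and 21.8 FPKM in 35S:CO against 4.10 and 4.07 FPKM in Col-0. They rose by 3.85 ± 0.13 and 2.12 ± 0.08. ABA1, in the synthesis of that hormone, rose as well. In the fit lacking 35S:CO replicate 1, these 5 families had 0 calls, except the P450 genes with 1, and without replicate 2 they had 0 to 3 each. Without Col-0 replicate 1 the P450 genes had 28 higher and 21 lower.

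Genes of cell division and of the ribosome were almost without calls. Of 13 S-phase genes, 27 genes of mitosis and 47 cyclins and cyclin-dependent kinases, limma called 0 in either direction, and 1, 0 and 6 of them had an unadjusted p under 0.05. With the replicate block it called 0 in each of these lists, and in the fit of all 16 libraries 0, 0 and 1. TSO2, a subunit of the enzyme that makes deoxynucleotides, stood at 104 and 129 FPKM in 35S:CO and 77.5 and 79.7 FPKM in Col-0, and the replication clamp PCNA2 at 31.9 and 33.6 FPKM in 35S:CO and 33.9 and 29.6 FPKM in Col-0. KN, the syntaxin of the dividing cell plate, stood at 36.7 and 43.3 FPKM in 35S:CO and 28.3 and 35.8 FPKM in Col-0. Of 20 histone genes 0 were called, with 1 at an unadjusted p under 0.05, and of 47 cytosolic ribosomal protein genes 0 were higher and 1 was lower. The ribosomal list named 84 loci, of which 49 were among the deposited loci. A p above the threshold does not show that these genes were equal in the groups.

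**Figure D4:**
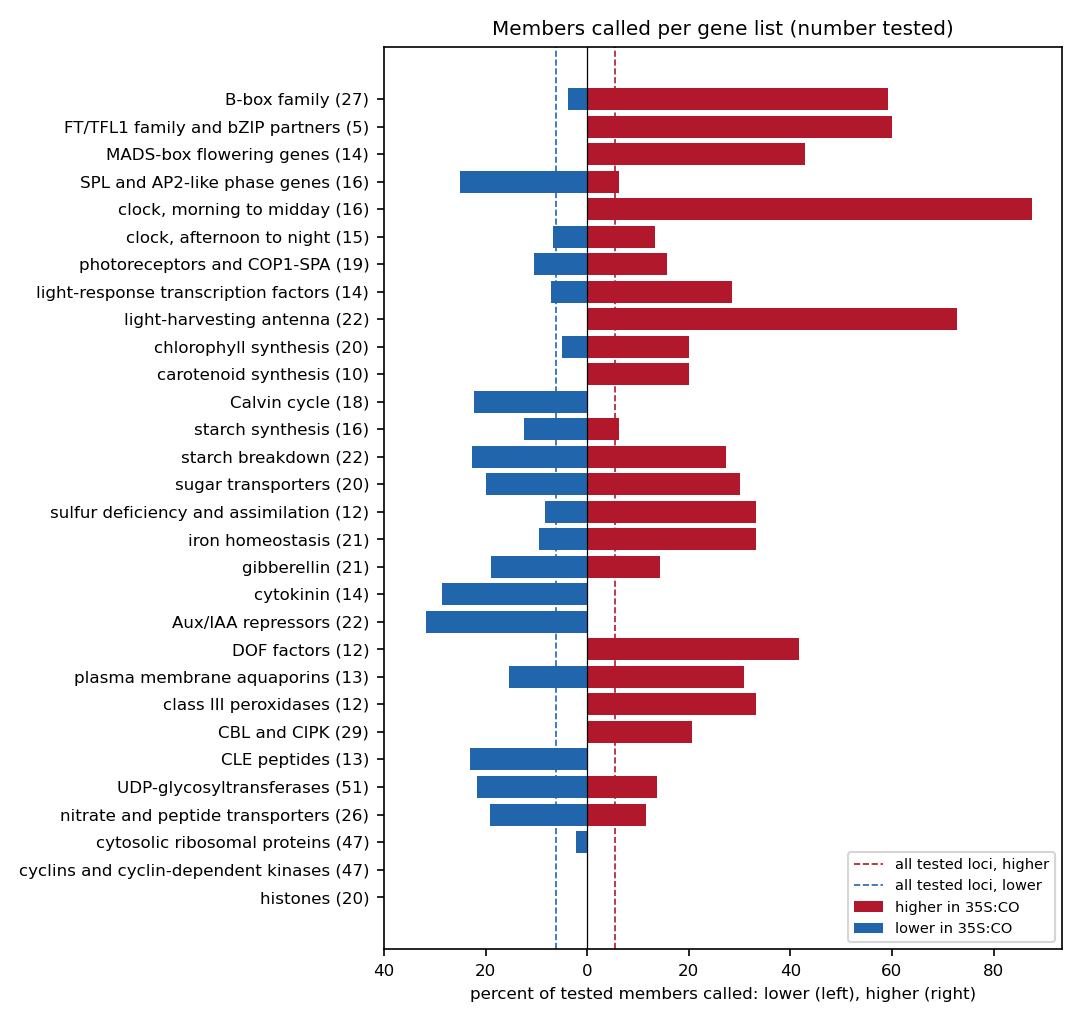
Share of the tested members of each gene list named on the axis that was called higher (red, to the right) or lower (blue, to the left) in 35S:CO, with the number tested in brackets; dashed lines give the shares of all tested loci, 5.5% higher and 6.22% lower. The morning clock genes, the antenna, the FT/TFL1 family and the B-box family reach furthest to the right among the lists plotted, and the Aux/IAA repressors and cytokinin genes furthest to the left.

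Beyond the lists, the largest increases held genes of many kinds. LEA3 (AT1G02820), of a protein family made in drying tissue and seeds, stood at 573 and 498 FPKM in 35S:CO and 6.57 and 3.80 FPKM in Col-0, a difference of 6.47 ± 0.24. AT1G62510, a lipid-transfer type protein, stood at 289 and 274 FPKM in 35S:CO and 7.28 and 5.19 FPKM in Col-0, and HIPP22, a protein with a heavy-metal binding domain, at 82.7 and 76.8 FPKM in 35S:CO and 3.09 and 2.13 FPKM in Col-0. CDA1, the cytidine deaminase of pyrimidine salvage, stood at 23.7 and 22.8 FPKM in 35S:CO and 0 and 0 FPKM in Col-0, so it was listed at 0 in Col-0. Both thionin genes of the set, small antimicrobial proteins, were higher: THI2.2 at 169.7 and 123 FPKM in 35S:CO against 5.82 and 6.32 FPKM in Col-0 and AT1G66100 at 78.6 and 52.1 FPKM in 35S:CO against 3.13 and 3.21 FPKM in Col-0.

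Of the other 9 of the 15 largest increases after CO and FT, 4 were enzymes. JMT, which methylates jasmonic acid, stood at 30.6 and 25.9 FPKM in 35S:CO and 1.38 and 0.398 FPKM in Col-0, and NDA1, an alternative NAD(P)H dehydrogenase of the mitochondrion, at 110.3 and 100.3 FPKM in 35S:CO and 6.63 and 3.65 FPKM in Col-0. The cysteine protease gene AT2G27420 rose by 4.24 ± 0.27 and AT3G50560, a Rossmann-fold oxidoreductase, by 4.29 ± 0.28. SAG29, BBX32, BBX16, BBX30 and LHCB2.3 complete the set. In all of them both 35S:CO libraries stood above both Col-0 libraries, which the rule for naming them required.

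Decreases of 4-fold or more numbered 21, and the largest were often of transcripts without a known role. AT5G42092, a long noncoding RNA, was listed at 0 and 0 FPKM in 35S:CO and 43.3 and 46.8 FPKM in Col-0. AT1G04977, another long noncoding RNA, was at 0 and 0 FPKM in 35S:CO against 17.1 and 14.7 FPKM in Col-0, and AT1G43310, of a nucleotide-sugar transporter family, at 0 and 0 FPKM in 35S:CO against 10.4 and 7.03 FPKM in Col-0. AT4G33720, of the family of pathogenesis-related protein 1, stood at 1.24 and 0.648 FPKM in 35S:CO and 42.9 and 26.0 FPKM in Col-0, a difference of -4.16 ± 0.28. AT5G40450, an A-kinase anchor-like protein, was at 0.390 and 0.349 FPKM in 35S:CO against 9.77 and 22.5 FPKM in Col-0, with Col-0 replicates apart.

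AT4G26630, a DEK-domain protein of chromatin, fell by 2.23 ± 0.10, at 14.8 and 17.4 FPKM in 35S:CO and 79.7 and 78.3 FPKM in Col-0. The gene with the symbol TPX2 at AT1G65970, a thioredoxin-dependent peroxidase of the cytosol, stood at 15.4 and 12.0 FPKM in 35S:CO and 81.9 and 72.9 FPKM in Col-0. LUL1, a RING-type ubiquitin ligase, fell by 2.25 ± 0.14. The uncharacterized genes AT2G22795, AT5G01881 and AT1G06475 and the noncoding AT1G05767, AT4G03685 and AT1G06957 complete the 15, with differences of -2.36 to -3.11. Of these 6, AT1G06475, AT4G03685 and AT1G06957 were at 0 in each 35S:CO library.

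ATMDAR2 (AT5G03630), a monodehydroascorbate reductase that recycles ascorbate, had the second largest decrease. It stood at 2.22 and 3.77 FPKM in 35S:CO and 86.4 and 74.0 FPKM in Col-0, a difference of -4.37 ± 0.21 (adjusted p = 0.00146). At the same hour it stood at 0 and 0 FPKM in 35S:CO petals and 97.5 and 68.7 FPKM in Col-0 petals. The genes on both sides of it on chromosome 5 were higher. AT5G03640, a protein kinase gene 2407 bases away, stood at 5.87 and 4.81 FPKM in 35S:CO and 0.804 and 0.638 FPKM in Col-0, a difference of 1.88 ± 0.14 (adjusted p = 0.0037). AT5G03620, a subtilisin-like protease gene 110 bases away, stood at 1.82 and 2.21 FPKM in 35S:CO and 0.742 and 0.576 FPKM in Col-0, a difference of 0.86 ± 0.13 (adjusted p = 0.0234). The next loci outward were not called, with AT5G03610 at 22.9 and 20.1 FPKM in 35S:CO against 17.7 and 20.1 FPKM in Col-0 and SBE2.2 at 45.8 and 48.3 FPKM in 35S:CO against 50.3 and 50.1 FPKM in Col-0. These neighbours were chosen after their values were seen, and how many transgene insertions the line carries, and where, is not given in the sources used here.

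**Figure D5:**
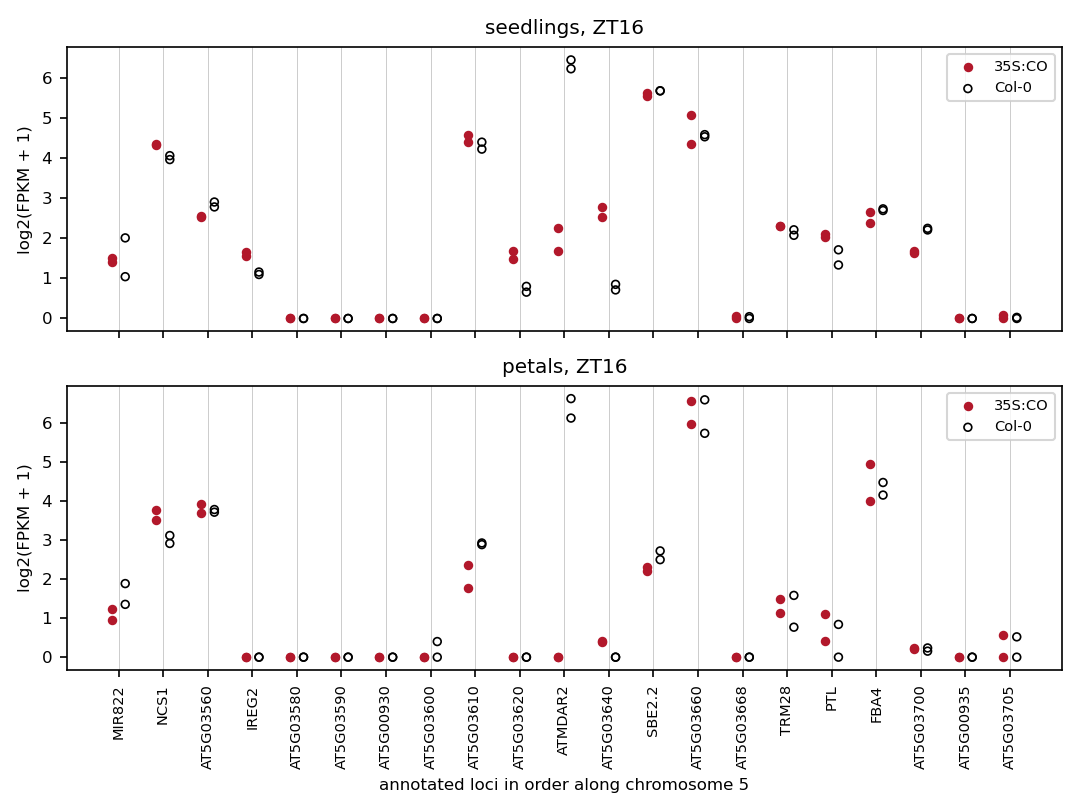
Levels of the 21 annotated loci around ATMDAR2 in order along chromosome 5, as log2(FPKM + 1), in seedlings (top) and petals (bottom) at ZT16; filled red points are 35S:CO libraries and open points Col-0 libraries. ATMDAR2 is far lower in 35S:CO in both organs, and in seedlings AT5G03620 and AT5G03640 beside it are higher.

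Calls were spread over the genome. By chromosome, 4.8% to 6.12% of tested loci were higher and 5.76% to 6.67% lower. In 763 windows of 25 neighbouring tested loci the median was 3 calls and the highest 10, and 46 windows had none. By RNA class, protein-coding loci were higher in 5.56% and lower in 6.13% of 18555 cases, and long noncoding RNAs in 6.23% and 6.5% of 369. Of 89 other noncoding RNAs, 0 were higher and 17 lower, and of 74 small nucleolar RNAs 0 and 6. An mRNA kit selects for poly(A) tails, which many of these RNAs lack. Of 28 primary microRNA transcripts, 1 was higher and 5 were lower. In 13 calls higher the gene was listed at 0 in both Col-0 libraries, all of them protein-coding, and in 9 calls lower 35S:CO replicates 1 and 2 were at 0, 3 of them protein-coding.

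Promoter sequences of the called genes were searched for the same short motifs on both strands, over the 250 bases before each annotated start of 19143 tested nuclear loci. The G-box reads the same on both strands and was counted once. The G-box CACGTG was held by 12.8% of the 1057 higher genes, 6.71% of 1192 lower genes and 7.24% of all tested. CCACA was held by 37.8%, 29.8% and 28.6% in the same sets. The evening element AAAATATCT was held by 3.88%, 2.18% and 2.48%, the CCA1 binding site AAAAATCT by 8.33%, 5.7% and 6.64%, and TGTGATG by 4.35%, 3.02% and 3.5%. TGTGNNATG was held by 3.97%, 3.86% and 3.26%. Of the 14 morning clock genes called higher, 7 held the G-box and 11 CCACA, and of the 16 antenna genes called higher, 4 and 8. Of the 16 B-box genes called higher, 2 held the G-box and 8 held CCACA. A match is a description of the letters only.

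The same genotypes were compared in petals at ZT16, and the difference between the organs was tested over all 16 libraries. These include petals of co-10 and petals at ZT4, which took part in the estimate of spread but not in the contrast. The 35S:CO effect differed between seedlings and petals at 329 of 21200 loci, 1.55%. In the same fit, 2.19% were called between 35S:CO and Col-0 petals. Petal calls come from this fit and seedling calls from the fit of the 4 seedling libraries, where 11.7% of tested loci were called. A fit of all 16 libraries called 803 loci in seedlings, against 2252, so the overlap does not compare like with like. Of the 387 loci called in petals and tested in seedlings, 186 were called in seedlings, and 173 of these had the same sign. The 186 are 48.1% of the petal calls and 8.26% of the seedling calls. Ribosomal RNA loci took 8.37% to 38.8% of the summed FPKM in the 4 petal libraries at ZT16 and 0.108% to 0.61% in the seedling libraries, and the part of this in the differences between organs was not tested. With a pseudocount of 0.1 FPKM 125 loci differed between the organs. Leaving out 1 library gave 155 to 314: 169 and 155 without 35S:CO petal replicates 1 and 2, 177 and 211 without 35S:CO seedling replicates 1 and 2, and 188 without Col-0 petal replicate 1.

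Of the 32 genes named for CO, FT and the largest seedling differences, a choice that favours a difference between organs, 19 differed. The sign was the same in both organs for 22. THI2.2, AT1G66100, AT4G33720, AT1G43310, AT1G05767, AT4G03685 and AT1G06957 were listed at 0 in all 4 petal libraries and had no sign there. AT5G42092, AT1G04977 and AT5G01881 had the opposite sign in petals but were not called there. LEA3, FT, LHCB2.3, HIPP22, BBX30 and BBX32 were higher in both organs and their difference between organs was not called. HIPP22 was at 802 and 815 FPKM in 35S:CO petals and 37.6 and 34.5 FPKM in Col-0 petals, and BBX30 at 19.5 and 20.6 FPKM in 35S:CO petals and 0.0839 and 0 FPKM in Col-0 petals. BBX16 is an example of a gene whose effect was larger in seedlings: it was at 0.292 and 0 FPKM in 35S:CO petals and 0 and 0 FPKM in Col-0 petals, and its effect in seedlings was larger by 4.12 ± 0.31 (adjusted p = 7.55e-05). THI2.2 was listed at 0 in all 4 petal libraries. CDA1, listed at 0 in Col-0 seedlings, was at 465 and 293 FPKM in 35S:CO petals and 442 and 294 FPKM in Col-0 petals.

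The called members of the lists, families read from symbols aside, numbered 162, a choice by seedling calls that favours a difference between organs. Among them, 7 more genes differed between the organs, where 1.55% of all loci did. In the antenna list it was LHCB2.2, at 4.09 and 4.99 FPKM in 35S:CO petals and 2.29 and 2.81 FPKM in Col-0 petals, with an effect larger in seedlings by 2.86 ± 0.60 (adjusted p = 0.0416). In the MADS-box list it was SEP1, at 109 and 106 FPKM in 35S:CO petals and 91.5 and 65.0 FPKM in Col-0 petals, larger in seedlings by 1.96 ± 0.36. Of the nutrient lists they were NRT1.8 (NPF7.2), AMT1;3 and BGLU28, and of the gibberellin list GA2OX1, all at 2.56 FPKM or less in petals. DIN2, a sugar-repressed glucosidase, was at 0 and 0 FPKM in 35S:CO petals and 6.79 and 5.56 FPKM in Col-0 petals but at 1.71 and 1.64 FPKM in 35S:CO against 0.735 and 0.499 FPKM in Col-0 in seedlings, so it stood lower in 35S:CO petals and higher in 35S:CO seedlings, a difference of 3.57 ± 0.72 (adjusted p = 0.0339).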

How the data were processed

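The 2 35S:CO and 2 Col-0 seedling samples, named biological replicates in the labels, were read from the table of FPKM values that the authors deposited, 1 column per library. Per the labels' protocols, 250 ng of total RNA went into a stranded mRNA library kit. The submitters' processing notes name FastQC, HISAT2 and TAIR10; neither the quantifier nor its strand setting appears in the sources used here. FPKM carry no counts, so no counting interval was given.

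On log2(FPKM + 1), limma 3.58.1 with trend and robust moderation (R 4.3.3) gave two-sided p-values, adjusted by Benjamini and Hochberg's method over every tested locus. With 2 libraries a group an exact permutation test cannot go below 0.333, so each gene leans on the spread of all genes, and that spread may be technical. Same-numbered libraries deviated from their group means with a correlation of -0.02, so numbers were not taken as pairs. The fit was tested on simulated data. The contrast with petals was an interaction over 16 libraries in 8 groups. Members and the 77 gene lists and families were chosen with earlier results of these data known; 73 lists had 5 or more tested members, and 23 members whose symbol in the reference differs were dropped. RefSeq's TAIR10.1 annotation gave names and positions for 32548 of 32833 loci, and promoter sequence.

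Named were CO, FT, the 15 other calls with the largest difference each way (mean log2 value of at least 1, groups not overlapping), and up to 4 called members of each described list, or the 2 most abundant where none was called. Any other gene named was chosen after its values were seen. Lists were described where 3 or more members were called at 3 times the background share, or where they concerned flowering, clock, light, photosynthesis or starch. Alternatives were other pseudocounts, filters, scalings and models, a replicate block, and leaving out each library.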

Additional observations from a re-analysis of the deposited data

Results flagged for a closer look

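For 19 of the 32 named genes the 35S:CO effect differed between seedlings and petals at ZT16, by the interaction term of limma over 16 libraries at an adjusted p under 0.05. Most of these genes were named for a large seedling difference, a choice that favours a difference between the organs. Each value below is the seedling difference minus the petal difference on the log2(FPKM + 1) scale. Among genes higher in 35S:CO seedlings it was 4.57 ± 0.52 for CDA1, 4.36 ± 0.30 for THI2.2, 4.20 ± 0.57 for AT1G62510, 4.12 ± 0.31 for BBX16, 3.96 ± 0.28 for AT1G66100, 3.37 ± 0.56 for JMT, 2.80 ± 0.46 for NDA1, 2.78 ± 0.53 for SAG29 and 2.50 ± 0.48 for AT2G27420. The thionins THI2.2 and AT1G66100 were listed at 0 in all 4 petal libraries, so their values repeat the seedling difference. JMT was at 14.2 and 7.89 FPKM in 35S:CO petals and 5.69 and 7.42 FPKM in Col-0 petals.

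CO was the one gene of the increases with a smaller difference in seedlings, -2.31 ± 0.35: it was at 625 and 507 FPKM in 35S:CO petals and 0.0376 and 0.191 FPKM in Col-0 petals. Among genes lower in 35S:CO seedlings the values were -5.93 ± 0.76 for AT5G42092, -4.16 ± 0.31 for AT4G33720, -4.15 ± 0.47 for AT1G04977, -3.95 ± 0.75 for AT5G01881, -3.26 ± 0.20 for AT1G43310, -2.63 ± 0.14 for AT4G03685, -2.62 ± 0.14 for AT1G06957 and -2.00 ± 0.42 for TPX2. AT4G33720, AT1G43310, AT4G03685 and AT1G06957 were listed at 0 in all 4 petal libraries, so their values repeat the seedling difference. AT5G42092 was at 2.51 and 3.23 FPKM in 35S:CO petals and 1.53 and 2.32 FPKM in Col-0 petals. For ATMDAR2 the value was 2.00 ± 0.36, and this gene stood lower in 35S:CO in both organs.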

How the results depend on the processing

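All 240 named genes and called list members kept their sign under every alternative in which they were tested. Most of these alternatives could not have changed it. The replicate block, the fit of all 16 libraries, the 2-fold test and the other filters leave the difference itself as it was. Where the groups do not overlap, another pseudocount or leaving out 1 library cannot reverse the sign either. Against 2252 calls, 1178 loci were called with a replicate block, 803 in the fit of all 16 libraries and 149 when tested against a 2-fold change. The calls higher, 1057, became 407 and 127 under the fit of all libraries and the 2-fold test. The calls lower, 1195, became 456 with the replicate block, 396 in the fit of all libraries, 22 in the 2-fold test and 722 without a filter on low values. Of the 240 genes, 180 passed the threshold with the replicate block, 100 in the fit of all 16 libraries, 63 in the 2-fold test, 32 without 35S:CO replicate 1 and 54 without replicate 2. Quantile normalization gave 1130 higher and 869 lower. Leaving out 1 library gave 65 to 3089 calls, 51 to 1234 higher and 14 to 1881 lower, with the low ends without 35S:CO replicate 1; the cause was not tested. The difference between seedlings and petals was called at 329 loci, at 125 with a pseudocount of 0.1 FPKM, and at 155 to 314 without 1 library. With 2 libraries a group, differences under the spread between replicates were not detectable, and levels under 1 FPKM in 3 or more libraries were not tested.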
